A study of Mus musculus with 6 samples.

Results

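The genes described here encode the enzymes and carriers of the mitochondrial tricarboxylic acid (TCA) cycle with its inlets and outlets, together with Acod1, which diverts a cycle intermediate into itaconate. They were chosen by symbol, 35 genes in all of 55401 listed, and 34 of them passed the filter on low counts among 16371 genes tested. The assay was poly(A) RNA sequencing of BV2, an immortalised line of mouse microglia, the resident macrophages of the brain. The cells were given vehicle in 3 libraries or lipopolysaccharide (LPS), a component of the Gram-negative bacterial outer membrane, in the other 3, and the labels state neither dose nor duration. Both groups were the same line, with no other agent or genetic change named. Separate cultures are not stated for the 3 libraries of a group, so each p-value reflects only the spread among these 6 libraries, which may be technical.

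The cycle oxidises acetyl-CoA, made from pyruvate by the pyruvate dehydrogenase complex, through citrate, 2-oxoglutarate, succinate and malate back to oxaloacetate. Carriers in the inner membrane take pyruvate in and move citrate, malate and other dicarboxylates out or in exchange, and glutamate dehydrogenase and the transaminases join the cycle to amino acids. Activated macrophages are known to draw citrate from the cycle for cytosolic acetyl-CoA and for itaconate, an antibacterial metabolite that inhibits succinate dehydrogenase.

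Each library totalled 45969690 to 59023474 estimated counts and listed 18984 to 20615 genes above 0. Levels are given as CPM, that is, counts relative to library size after TMM scaling, and a change is LPS against Vehicle on the log2 scale with its standard error (SE). The treatment was seen in Nos2, the inducible nitric oxide synthase, whose level was 2.51 ± 0.32 CPM with vehicle and 513 ± 56.6 CPM with LPS (SD, n = 3). All 8 macrophage and microglia markers looked up were tested, and their summed level was 1069 to 1118 CPM in the Vehicle libraries and 776 to 930 CPM in the LPS libraries. Among them Csf1r and Tyrobp fell (log2 changes of -1.41 and -0.56) and Adgre1 rose (0.72). Over all libraries Aif1 was at 1.77 to 4.58 CPM and Cx3cr1 at 0.663 to 2.51 CPM. Summed levels of the marker lists for astrocytes (3.99 to 7.54 CPM with vehicle, 1.70 to 5.34 with LPS), neurons (4.47 to 11.8 and 1.82 to 12.4), oligodendrocytes (4.71 to 6.51 and 1.12 to 6.52) and fibroblasts (0.149 to 0.534 and 0.160 to 0.780) were low, and Lum was at 0 in every library. On the second principal component of log2 CPM (19.3% of the variance) LPS 1 (62.8) and LPS 3 (-66.3) took the ends, with the Vehicle libraries from -0.90 to 16.5.

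Acod1 rose 10-fold with LPS, while the genes of the cycle itself moved by much smaller amounts and in both directions. With edgeR's quasi-likelihood test and a threshold of 0.05 on the Benjamini-Hochberg adjusted p, taken over every tested gene, 6 of the 34 were called higher and 7 lower. That is 38.2% of them, beside 23.6% of all tested genes called in either direction, 12.7% higher and 10.9% lower. Under a stricter filter on low counts, 30.8% of 12617 genes were called, and the members gave the same counts. The median log2 change of the 34 genes was -0.02, as it was for all tested genes. In 17 of the 34 the libraries of the 2 groups did not overlap, beside 40.8% of all tested genes. Changes of at least 2-fold were called in 2 genes, Acod1 and the dicarboxylate carrier gene Slc25a10. Scaled by total counts instead of TMM, 4 were higher and 7 lower, and 42.2% of all called genes were higher in place of 53.9%. A p that misses the threshold does not show that a gene was unchanged, and in bulk RNA fewer cells with a transcript cannot be told apart from less of it per cell.

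**Figure D1:**
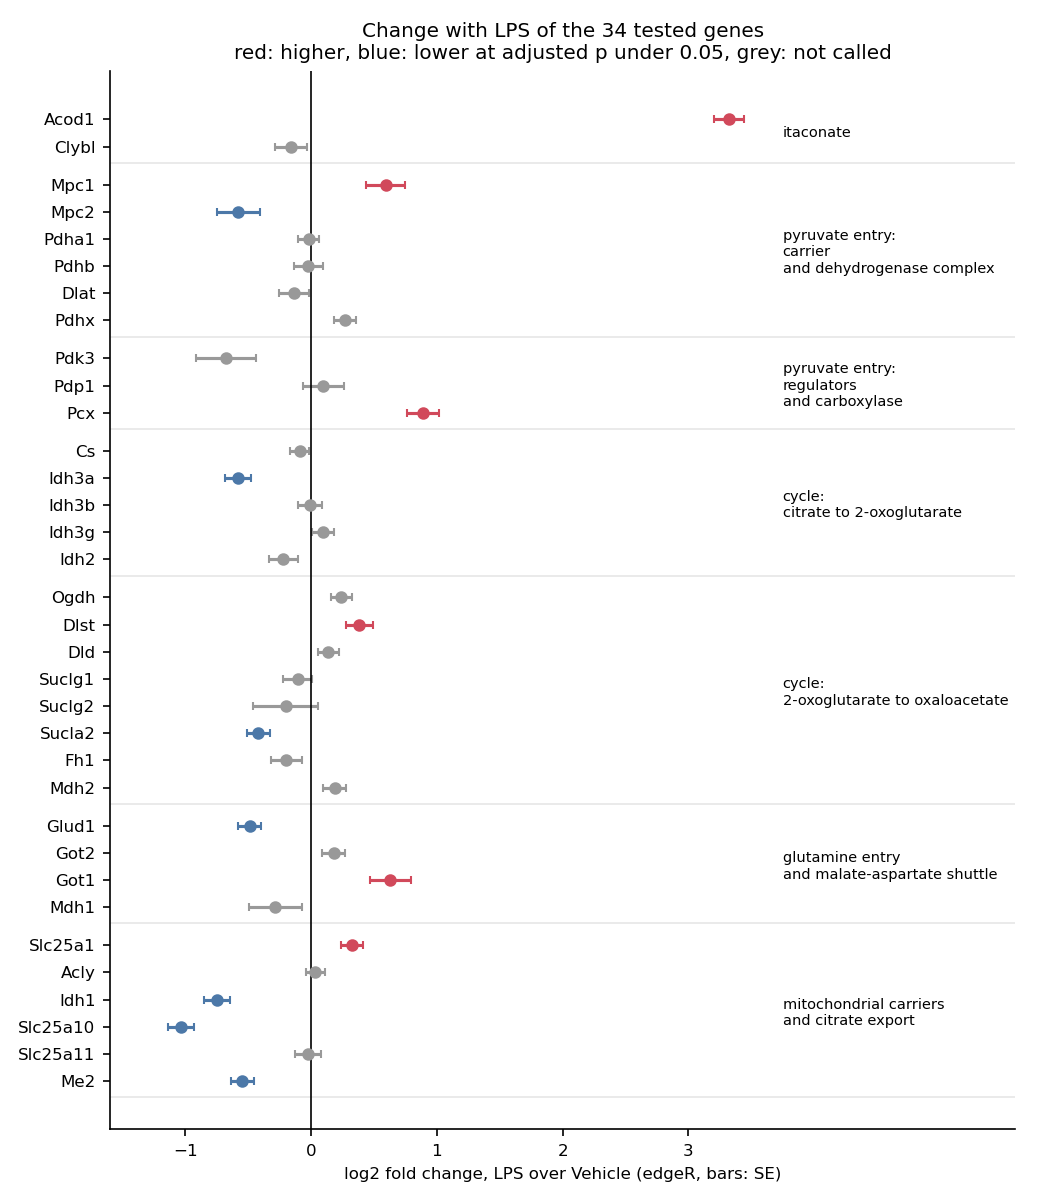
Log2 fold change of LPS over Vehicle for the 34 tested genes, in order of pathway step, with bars for the SE and colour for the call at an adjusted p under 0.05. Acod1 lies at 3.32, and every other gene lies between -1.03 and 0.89.

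Promoter sequences are shown for Acod1 and Slc25a10, the genes called at 2-fold or more, and for Slc25a11, a related carrier gene that was not called. They are the 250 bases before the start in the RefSeq table for build GRCm38.p6, read 5′ to 3′ in the direction of the gene, at chr14:103046762-103047011 on the plus strand, chr11:120491587-120491836 on the plus strand and chr11:70647040-70647289 on the minus strand. Capitals mark TATAAA in Acod1 and the letters of the NF-kB motif on the opposite strand in Slc25a10. In Slc25a11 they mark TGATTCA, a match to TGANTCA, the loose pattern searched for AP-1, in which N is any base.
Acod1: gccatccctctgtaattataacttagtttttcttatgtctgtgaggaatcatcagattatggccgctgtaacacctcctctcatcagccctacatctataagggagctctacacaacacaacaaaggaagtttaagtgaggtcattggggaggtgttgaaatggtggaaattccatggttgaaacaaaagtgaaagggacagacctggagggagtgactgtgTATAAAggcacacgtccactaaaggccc
Slc25a10: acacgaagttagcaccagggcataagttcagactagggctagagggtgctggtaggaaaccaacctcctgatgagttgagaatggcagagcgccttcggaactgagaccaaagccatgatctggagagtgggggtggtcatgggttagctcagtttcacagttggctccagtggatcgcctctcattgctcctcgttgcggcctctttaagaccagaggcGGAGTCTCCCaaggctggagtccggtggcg
Slc25a11: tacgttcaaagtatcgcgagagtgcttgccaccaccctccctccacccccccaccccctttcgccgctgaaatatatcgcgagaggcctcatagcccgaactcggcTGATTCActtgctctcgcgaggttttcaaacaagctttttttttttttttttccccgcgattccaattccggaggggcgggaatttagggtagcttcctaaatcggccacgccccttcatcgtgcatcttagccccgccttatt
In Acod1 the TATAAA run began 28 bases before the start.

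Windows of 250 bases before to 50 after a start were found for 32 of the 35 genes (41 windows, as some genes have several starts). They were searched on both strands for 5 motifs, and the windows of all genes in the table, 32851 in number, were searched in the same way. The NF-kB consensus motif was in 10 of the 41 windows (24.4%) and in 8.46% of all windows. The genes with it were Dlst, Got1, Idh2, Ogdh, Pdha1, Pdk2, Slc25a1, Slc25a10, Sucla2 and Suclg2. Of these 10 genes, Dlst, Got1 and Slc25a1 rose with LPS, Slc25a10 and Sucla2 fell, 4 were not called, and Pdk2 was not tested. For scale, 38.2% of the tested members and 23.6% of all tested genes were called. The calls of Dlst, Got1, Slc25a1 and Sucla2 were each lost under some of the other settings given below. Whether the motif goes with the changes was not tested. The cAMP response element core TGACGT was also in 10 of the 41 windows, from 8 genes, beside 7.51% of all windows. Among these 10 were overlapping windows of Ogdh that held the same stretch, so that stretch was counted more than once. TATAAA was in Acod1 and Got2 alone (13.6% of all windows), TGANTCA in Slc25a11 alone (7.81%), and the NRF1 motif in Dld and Sucla2 (2.72%). No match overlapped one of another motif in the same window. A match of letters is a description and not a bound site.

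Acod1 (ENSMUSG00000022126) encodes aconitate decarboxylase, the enzyme that makes itaconate from cis-aconitate. Its level was 346, 307 and 387 CPM in Vehicle 1 to 3 and 3178, 3741 and 3487 CPM in LPS 1 to 3. The lowest LPS library was above the highest Vehicle library by a wide gap. The mean rose from 347 ± 40.01 to 3469 ± 282 CPM (SD, n = 3), with a log2 change of 3.32 ± 0.12 (edgeR adjusted p = 1.37e-06). By CPM the gene moved from rank 423 to rank 13 among the tested genes, and its log2 change was 108th in size among the 2082 genes called higher. Per kilobase of transcript, the scale on which genes can be compared, Acod1 was sixth of the 35 genes with vehicle, at 132 ± 15.3 CPM per kilobase, and first with LPS, at 1322 ± 107. It made up 4.36% to 5.40% of the summed per-kilobase level of the 35 genes in the Vehicle libraries and 31.0% to 34.99% in the LPS libraries. Without Acod1, the summed CPM of the others was 6429 to 6626 with vehicle and 6171 to 6814 with LPS, so the sums of the groups overlapped.

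Clybl, whose product breaks down citramalyl-CoA, a product of itaconate degradation, did not pass the test. It was at 27.9, 23.5 and 25.3 CPM with vehicle and 23.6, 24.5 and 20.6 CPM with LPS, and the groups overlapped (log2 change -0.16 ± 0.13, edgeR adjusted p = 0.413). The ratio of Acod1 to Clybl counts within a library was 12.4, 13.04 and 15.3 with vehicle and 135, 152 and 169 with LPS. The ratio of Acod1 to Cs, the citrate synthase gene, was 0.746, 0.668 and 0.807 with vehicle and 7.49, 8.10 and 8.07 with LPS. Acod1 counts were thus below those of citrate synthase in every Vehicle library and above them in every LPS library.

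**Figure D2:**
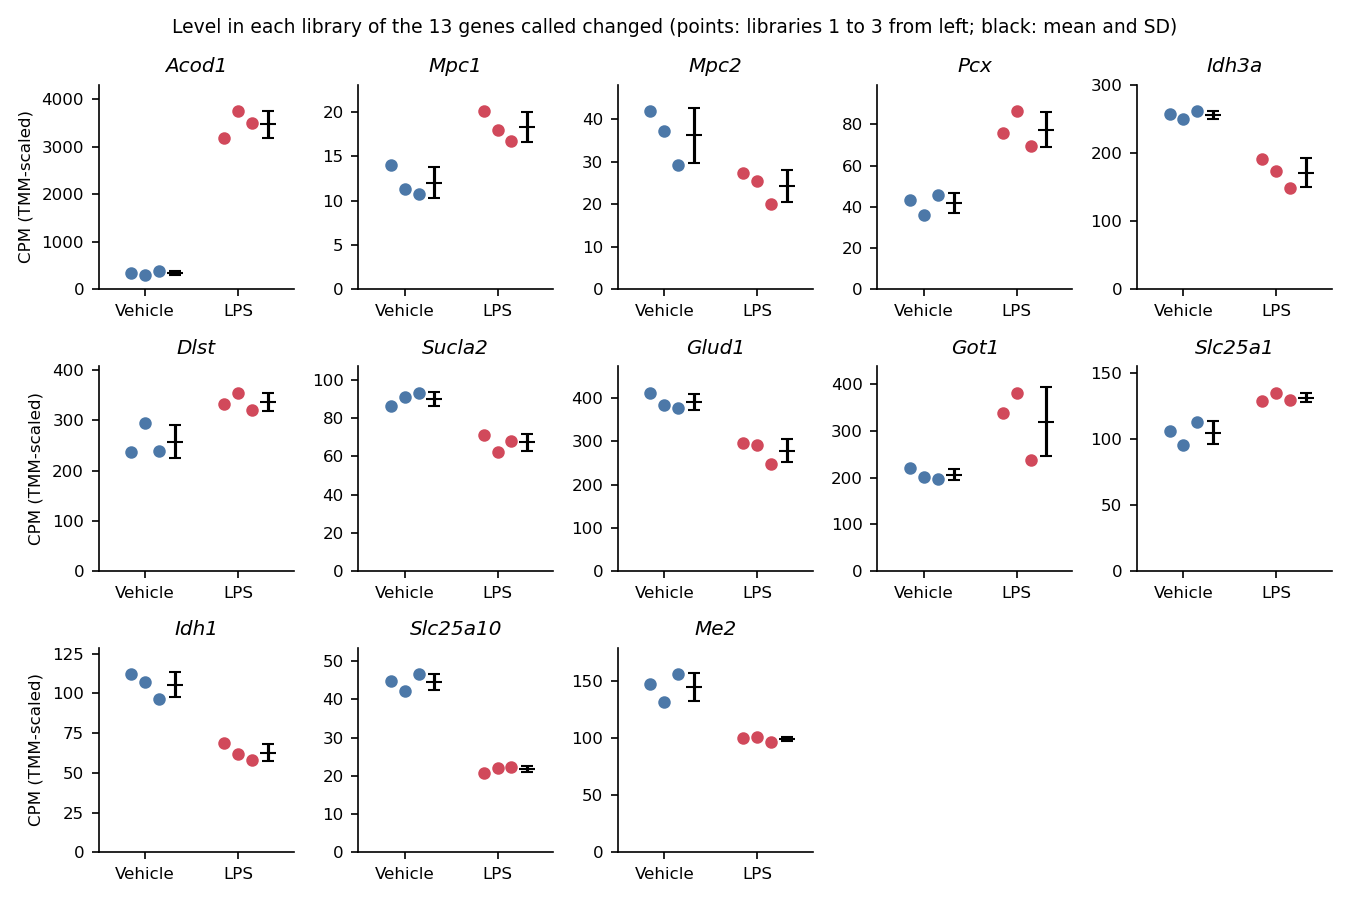
Level in CPM of the 13 called genes in each library, with Vehicle in blue, LPS in red, and the mean with SD in black beside each group; every axis starts at 0. The groups do not overlap in any of the 13, and the gap between them is widest for Acod1.

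Pyruvate enters mitochondria through a carrier made of the products of Mpc1 and Mpc2, and the 2 genes moved in opposite directions. Mpc1 (ENSMUSG00000023861) was at 14.0, 11.3 and 10.8 CPM with vehicle and 20.1, 18.0 and 16.8 CPM with LPS. All LPS libraries were above all Vehicle libraries, and the log2 change was 0.59 ± 0.16 (edgeR adjusted p = 0.0262). Mpc2 (ENSMUSG00000026568) was at 41.9, 37.4 and 29.4 CPM with vehicle and 27.4, 25.5 and 20.1 CPM with LPS. Here all LPS libraries were below all Vehicle libraries, though LPS 1 came close to Vehicle 3, and the log2 change was -0.58 ± 0.17 (edgeR adjusted p = 0.0411). Within a library the ratio of Mpc1 to Mpc2 counts was 0.335, 0.303 and 0.368 with vehicle and 0.735, 0.705 and 0.837 with LPS, a 2.26-fold shift. The call of Mpc1 did not hold without Vehicle 2, Vehicle 3, LPS 1 or LPS 2 (adjusted p 0.0671 to 0.0993). That of Mpc2 was lost with limma voom (0.0505), with edgeR's test as before version 4 (0.0503) and without Vehicle 1, Vehicle 2, LPS 2 or LPS 3 (0.0694 to 0.147). Mpc1 also has a pseudogene, Mpc1-ps, listed with 5251 counts over the 6 libraries beside 4684 for Mpc1, so the split of reads between them is uncertain.

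Of the pyruvate dehydrogenase complex, 4 subunit genes are given here, and the gene of its shared E3 enzyme, Dld, is given below. None of the 4 passed the test, and 1 of them, Pdhx, had an unadjusted p under 0.05. Pdha1 and Pdhb, the subunits of the decarboxylating E1 enzyme, had log2 changes of -0.02 ± 0.08 and -0.02 ± 0.11. Dlat, the acetyltransferase E2, had -0.14 ± 0.12, and for all 3 the libraries of the groups overlapped. Pdhx, which anchors the E3 enzyme in the complex, was at 83.7, 77.8 and 79.9 CPM with vehicle and 103, 93.4 and 94.2 CPM with LPS. Its LPS libraries were all above its Vehicle libraries, but it missed the threshold (log2 change 0.27 ± 0.09, edgeR adjusted p = 0.0596). It was called by DESeq2 (0.0393) and without LPS 3 (0.0477). Pdha1 overlaps Map3k15 on the opposite strand, and the kit is not stated to mark strand.

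The complex is switched off by the Pdk kinases and on by the Pdp phosphatases. Pdk3 was at 3.94, 4.85 and 5.62 CPM with vehicle and 3.18, 2.52 and 3.24 CPM with LPS. The groups did not overlap, but the gene missed the threshold (log2 change -0.68 ± 0.24, edgeR adjusted p = 0.0750), and DESeq2 called it (0.0473). Pdk2 (ENSMUSG00000038967) was listed with 20, 18 and 4 counts in the Vehicle libraries and 0 in every LPS library. A floor of 3 steps of the low values came to 11.4 to 11.8 counts per library, and Vehicle 3 was below it. Apart from that floor, the gene failed the filter on low counts, so no change is given. Pdp1, the phosphatase catalytic subunit, was at 9.53, 8.60 and 7.94 CPM with vehicle and 10.2, 9.02 and 8.72 CPM with LPS, with overlapping groups (log2 change 0.10 ± 0.16).

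Pyruvate carboxylase makes oxaloacetate from pyruvate and so refills the cycle, and its gene Pcx (ENSMUSG00000024892) had the second largest rise of the 34 genes. Pcx was at 43.5, 36.3 and 45.7 CPM with vehicle and 76.1, 86.4 and 69.6 CPM with LPS. Every LPS library was far above every Vehicle library. The mean rose from 41.8 ± 4.92 to 77.4 ± 8.48 CPM (SD, n = 3), with a log2 change of 0.89 ± 0.13 (edgeR adjusted p = 0.00166). Relative to Pdha1, on the other route of pyruvate into the cycle, the Pcx count was 0.149, 0.133 and 0.164 with vehicle and 0.258, 0.334 and 0.248 with LPS.

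Of the 5 member genes tested on the arm from citrate to 2-oxoglutarate, 1 fell and none rose (20% called, beside 23.6% of all tested genes). Idh3a (ENSMUSG00000032279) encodes the catalytic subunit of the NAD-dependent isocitrate dehydrogenase. It was at 257, 249.6 and 261 CPM with vehicle and 191, 173 and 148 CPM with LPS. The Vehicle libraries lay close together and all LPS libraries were well below them, with a mean of 256 ± 5.87 against 171 ± 21.3 CPM (SD, n = 3). The log2 change was -0.58 ± 0.10 (edgeR adjusted p = 0.00471). The genes of the other subunits of the same enzyme, Idh3b and Idh3g, had log2 changes of -0.01 ± 0.10 and 0.09 ± 0.09 with overlapping groups. As a description chosen after the values were seen, the Idh3a count was 2.08, 2.03 and 2.07 times that of Idh3g in the Vehicle libraries and 1.42, 1.21 and 1.23 times in the LPS libraries. Idh3b overlaps Nop56 on the opposite strand, which had more counts (95514 against 67609 over the 6 libraries).

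Cs, at the entry of acetyl-CoA into the cycle, was at 464, 459.5 and 479.9 CPM with vehicle and 424, 462 and 432 CPM with LPS, and LPS 2 lay within the Vehicle range (log2 change -0.09 ± 0.08, edgeR adjusted p = 0.446). Idh2, the mitochondrial NADP-dependent isocitrate dehydrogenase, was at 205, 179.8 and 172 CPM with vehicle and 159, 179.5 and 139.6 CPM with LPS, again with overlap (-0.22 ± 0.12, adjusted p = 0.209). Its cytosolic counterpart Idh1 (ENSMUSG00000025950) did fall. Idh1 was at 112, 107 and 96.8 CPM with vehicle and 68.5, 61.6 and 58.4 CPM with LPS. The groups were clearly apart, with means of 105 ± 7.80 and 62.9 ± 5.18 CPM (SD, n = 3) and a log2 change of -0.75 ± 0.10 (edgeR adjusted p = 0.00138). The ratio of Idh1 to Idh2 counts was 0.546, 0.597 and 0.562 with vehicle and 0.431, 0.343 and 0.418 with LPS, so the cytosolic form was the smaller share in every library and smaller still with LPS.

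Of the 8 member genes from 2-oxoglutarate to oxaloacetate, 1 rose and 1 fell (25% called, beside 23.6% of all tested genes). The succinate dehydrogenase genes of this stretch are not among the 8 and are given below, where Sdhd fell. Dlst (ENSMUSG00000004789), the succinyltransferase of the 2-oxoglutarate dehydrogenase complex, was at 237, 295 and 239.7 CPM with vehicle and 332, 355 and 320.2 CPM with LPS. All LPS libraries were above Vehicle 2, the highest Vehicle library (log2 change 0.38 ± 0.11, edgeR adjusted p = 0.0324). The call was lost with total counts (0.0776) and without Vehicle 1, Vehicle 3, LPS 1 or LPS 2 (0.0806 to 0.123). Ogdh, the E1 enzyme of that complex, was at 266, 260.1 and 276 CPM with vehicle and 298, 311 and 339 CPM with LPS. Its groups did not overlap either, but it missed the threshold (0.24 ± 0.08, edgeR adjusted p = 0.0722). Dld, the E3 shared by this complex and pyruvate dehydrogenase, had a log2 change of 0.14 ± 0.08, with LPS 3 just below Vehicle 2.

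Succinyl-CoA ligase is built from the subunit Suclg1 with either the ADP-forming Sucla2 or the GDP-forming Suclg2. Sucla2 (ENSMUSG00000022110) was at 86.2, 90.9 and 93.3 CPM with vehicle and 71.4, 62.4 and 68.3 CPM with LPS. Every LPS library was below every Vehicle library (log2 change -0.42 ± 0.09, edgeR adjusted p = 0.0128). Without Vehicle 2 or Vehicle 3 the adjusted p was 0.0577 or 0.0547. Suclg2 had the largest SE of the 34 genes, at 99.3, 91.4 and 56.3 CPM with vehicle and 87.7, 74.2 and 53.1 CPM with LPS, and was not called (-0.20 ± 0.26). Vehicle 3 and LPS 3 were the low libraries there. Suclg1 had a log2 change of -0.11 ± 0.11 with overlap. The ratio of Sucla2 to Suclg2 also overlapped between the groups (exact permutation p = 0.5, 3 against 3 libraries).

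The last steps of the cycle were not called. Fh1, the fumarase gene, was at 116, 103 and 98.0 CPM with vehicle and 99.1, 99.9 and 78.3 CPM with LPS, with overlap. Mdh2, the mitochondrial malate dehydrogenase, had the highest per-kilobase level of the 35 genes with vehicle, at 338 ± 14.5 CPM per kilobase. It was at 559, 516 and 553 CPM with vehicle and 631, 660.5 and 562 CPM with LPS. The groups did not overlap, by a narrow margin at LPS 3, and the log2 change was 0.19 ± 0.09 (edgeR adjusted p = 0.173). Without LPS 3 the gene was called (0.25, adjusted p = 0.0297).

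**Figure D3:**
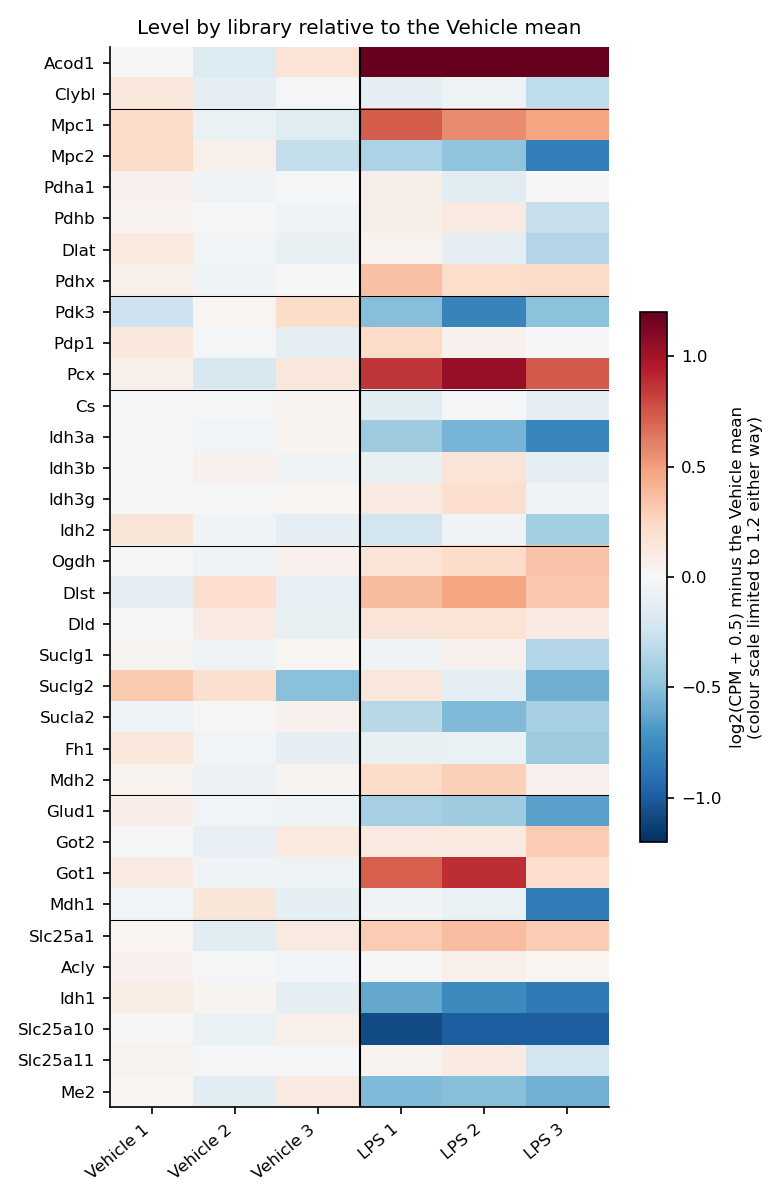
Log2(CPM + 0.5) of the 34 tested genes in each library minus the mean of the Vehicle libraries, in order of pathway step, on a colour scale limited to 1.2 either way, which Acod1 exceeds in the LPS libraries. LPS 3 is the lowest of the LPS libraries in 23 of the 34 genes.

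Glutamate enters the cycle as 2-oxoglutarate through glutamate dehydrogenase or through the transaminases. Glud1 (ENSMUSG00000021794), the dehydrogenase gene, was at 413, 384 and 378 CPM with vehicle and 296, 291 and 249 CPM with LPS. All LPS libraries were well below all Vehicle libraries, and the mean fell from 392 ± 18.5 to 279 ± 26.1 CPM (SD, n = 3; log2 change -0.49 ± 0.09, edgeR adjusted p = 0.00704). Got1 (ENSMUSG00000025190), the cytosolic aspartate transaminase, was at 221, 201 and 198 CPM with vehicle and 338, 382 and 238 CPM with LPS. LPS 3 was near the Vehicle libraries and the other two LPS libraries were far above them (log2 change 0.63 ± 0.16, edgeR adjusted p = 0.0270). The call of Got1 was lost without Vehicle 1, Vehicle 2, Vehicle 3, LPS 1 or LPS 2 (0.0603 to 0.0944).

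Got2, the mitochondrial transaminase, was among the highest of the 35 genes in per-kilobase level in both groups, and was not called. It was at 813, 768 and 889 CPM with vehicle and 886, 890.4 and 1018 CPM with LPS, and LPS 1 lay below Vehicle 3 (log2 change 0.18 ± 0.09, edgeR adjusted p = 0.216). A pseudogene, Got2-ps1, was listed with 10686 counts beside 269552 for Got2. Mdh1, the cytosolic malate dehydrogenase of the same shuttle, was at 274, 311 and 259 CPM with vehicle and 272, 265 and 156 CPM with LPS. Only LPS 3 was outside the Vehicle range, and the log2 change was -0.28 ± 0.21 (adjusted p = 0.378). The ratio of Mdh1 to Mdh2 counts was 0.491, 0.602 and 0.468 with vehicle and 0.431, 0.401 and 0.278 with LPS, without overlap, while the ratio of Got1 to Got2 overlapped because of LPS 3.

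The last group held 6 genes, of carriers, citrate export, cytosolic isocitrate dehydrogenase (Idh1) and malic enzyme (Me2). Slc25a1 rose, Slc25a10, Idh1 and Me2 fell, and Acly and Slc25a11 were not called. Slc25a10 was thus the only carrier gene of the group called lower. Slc25a10 (ENSMUSG00000025792), which exchanges malate or succinate for phosphate across the inner membrane, had the largest fall of the 34 genes. It was at 44.8, 42.2 and 46.6 CPM with vehicle and 20.9, 22.2 and 22.2 CPM with LPS. Both groups were tight and far apart, with means of 44.5 ± 2.19 and 21.7 ± 0.763 CPM (SD, n = 3), and the log2 change was -1.03 ± 0.11 (edgeR adjusted p = 0.000346). Slc25a11, which exchanges malate for 2-oxoglutarate, was at 136, 131 and 130.2 CPM with vehicle and 136, 142 and 113 CPM with LPS, with overlap (-0.02 ± 0.10, adjusted p = 0.903). Within a library the ratio of Slc25a11 to Slc25a10 counts was 3.05, 3.11 and 2.80 with vehicle and 6.53, 6.41 and 5.10 with LPS, a 2.01-fold shift. Slc25a11 overlaps Rnf167 on the opposite strand, which had 4712 counts beside 40638.

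Citrate leaves mitochondria through the product of Slc25a1 and is cleaved to acetyl-CoA in the cytosol by ATP citrate lyase, the product of Acly. Slc25a1 (ENSMUSG00000003528) was at 106, 95.9 and 113 CPM with vehicle and 129, 135 and 129.8 CPM with LPS. All LPS libraries were above all Vehicle libraries (log2 change 0.32 ± 0.09, edgeR adjusted p = 0.0335). The call was lost in 6 of the 16 alternatives, among them total counts (0.0922) and the fits without Vehicle 1, Vehicle 2, LPS 1 or LPS 2 (0.0799 to 0.136). Acly was at 374, 356 and 353 CPM with vehicle and 363, 378 and 368 CPM with LPS. The groups overlapped, and its log2 change of 0.03 ± 0.07 turned to -0.06 with total counts. The ratio of Acly to Slc25a1 counts was 3.53, 3.72 and 3.13 with vehicle and 2.81, 2.79 and 2.84 with LPS.

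Me2 (ENSMUSG00000024556), the mitochondrial malic enzyme that makes pyruvate from malate, was at 147, 132 and 156 CPM with vehicle and 99.8, 101 and 97.0 CPM with LPS. The LPS libraries were nearly equal and all below the Vehicle libraries, with means of 145 ± 12.3 and 99.2 ± 2.04 CPM (SD, n = 3). The log2 change was -0.55 ± 0.09 (edgeR adjusted p = 0.00360). Together with Acod1, Pcx, Idh3a, Glud1, Idh1 and Slc25a10, it kept its call and direction in all 16 alternatives, with a largest adjusted p of 0.0373, for Glud1. The other 6 called genes each lost the call in at least 2 alternatives and changed direction in none.

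**Figure D4:**
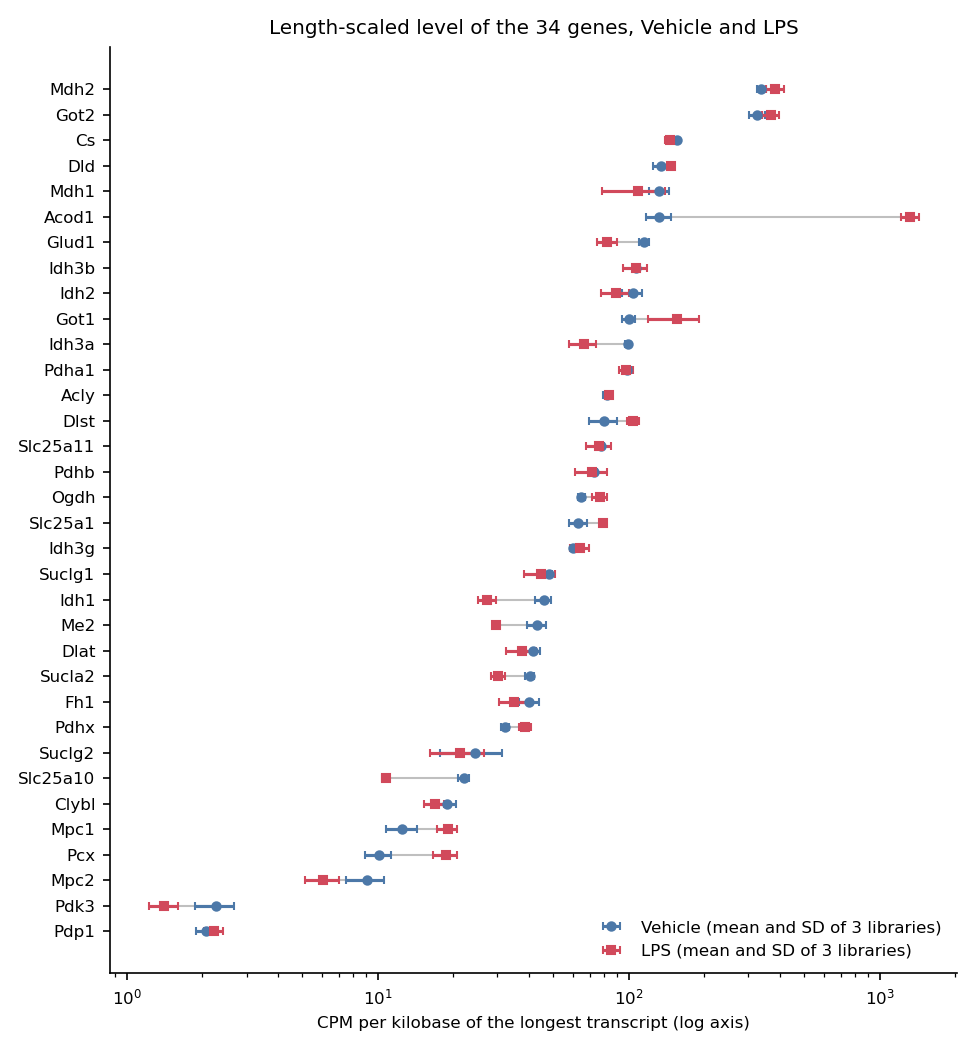
Mean level with SD (3 libraries) of the 34 tested genes in CPM per kilobase of the longest transcript, on a log axis, ordered by the Vehicle level. Vehicle levels run from 2.07 (Pdp1) to 338 (Mdh2), and Acod1 moves from sixth place with vehicle to first with LPS, at 1322.

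Ratios within a library do not depend on scaling, and 11 pairs were compared by an exact permutation test, two-sided. With 3 against 3 libraries an exact permutation test cannot go below p = 0.1, which 9 of the 11 pairs reached (0.122 after Benjamini-Hochberg adjustment), so none could pass 0.05. The 9 without overlap were Idh1/Idh2, Mdh1/Mdh2, Mpc1/Mpc2, Slc25a11/Slc25a10, Acod1/Cs, Acod1/Clybl, Acly/Slc25a1, Pcx/Pdha1 and Pdk3/Pdp1. The mean log2 ratio differed most for Acod1/Clybl (3.49) and Acod1/Cs (3.42), followed by Mpc1/Mpc2 (1.18) and Slc25a11/Slc25a10 (1.00). For Idh1/Idh2 it was -0.52, for Mdh1/Mdh2 -0.51, for Acly/Slc25a1 -0.29, for Pcx/Pdha1 0.91 and for Pdk3/Pdp1 -0.78. The pairs were chosen with earlier results known, so these are descriptions of named pairs.

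**Figure D5:**
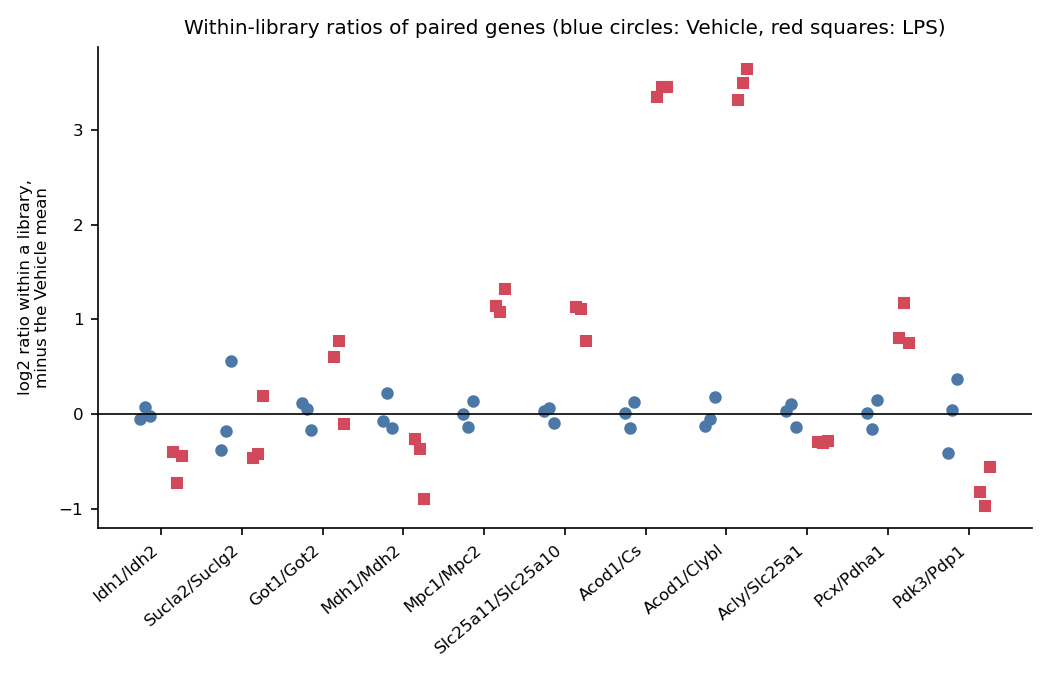
Log2 ratio of counts of 2 genes within each library minus its mean in the Vehicle libraries, for 11 pairs, with Vehicle as blue circles and LPS as red squares. The groups are apart in 9 pairs and overlap in Sucla2/Suclg2 and Got1/Got2.

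The LPS libraries were not alike for these genes. LPS 3 was the lowest of the 3 in 23 of the 34 genes (67.6%), beside 37.7% of all tested genes, and the highest in 4. The same library was the lowest of the 3 in every gene of the respiratory chain list described below. Low values in LPS 3 were thus not particular to the members. The summed CPM without Acod1 was lowest in LPS 3, at 6171, and highest in LPS 2, at 6814. Mdh1, Got1, Pdhb and Suclg1 show the difference, for example Pdhb at 182, 186 and 142 CPM in LPS 1 to 3 and Suclg1 at 129, 137 and 104. Without LPS 3, 8 genes were higher and 6 lower, with Pdhx and Mdh2 added to the higher ones. LPS 3 was also the end of the second principal component, and its part in the counts beyond these values was not tested.

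Beside these, 44 other genes of the same pathway were looked up, and 37 were tested. Of these 3 rose and 4 fell (18.9% called, beside 23.6% of all tested genes), with a median log2 change of -0.17. With total counts, 0 rose and 11 fell. Pck2, which makes phosphoenolpyruvate from oxaloacetate in mitochondria, rose by 0.49 ± 0.14 on the log2 scale (edgeR adjusted p = 0.0351), a call lost with total counts (0.0549) and without any 1 library but LPS 3 (0.0716 to 0.112). Lipt1, a lipoyl transferase for the E2 subunits, rose by 0.54 ± 0.17 (adjusted p = 0.0486), a call lost in 11 alternatives (up to 0.148), including without any 1 library but LPS 2. It overlaps Mitd1 on the opposite strand, which had more counts.

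Succinate dehydrogenase, the enzyme inhibited by itaconate, has 4 subunit genes, of which 1 fell. For scale, 10.9% of all tested genes were called lower. Sdhd, a membrane anchor, was at 279, 275 and 290.4 CPM with vehicle and 200.3, 206 and 174 CPM with LPS. The groups were far apart (log2 change -0.54 ± 0.09, edgeR adjusted p = 0.00354). Sdha, the catalytic flavoprotein, was at 495, 492 and 463 CPM with vehicle and 418, 436 and 387 CPM with LPS. Its groups did not overlap, yet it missed the threshold (-0.22 ± 0.08, edgeR adjusted p = 0.0858) and was called with total counts (0.0202) and by DESeq2 (0.0411). Sdhb and Sdhc had log2 changes of -0.02 ± 0.14 and 0.04 ± 0.15 with overlap. Pdk1, another pyruvate dehydrogenase kinase, fell from 169 ± 0.828 to 110.5 ± 9.77 CPM (SD, n = 3; log2 change -0.62 ± 0.09, edgeR adjusted p = 0.00189), with 169, 170.2 and 169 CPM in the Vehicle libraries and 121, 107 and 103 CPM in the LPS libraries. Glul, which makes glutamine from glutamate, fell by 0.39 on the log2 scale (adjusted p = 0.00896). Gls2, a glutaminase gene, had a log2 change of -1.34 ± 0.34 at levels of about 2.06 and 0.799 CPM (adjusted p = 0.0244). The call of Gls2 did not hold without Vehicle 2, Vehicle 3, LPS 2 or LPS 3 (0.0533 to 0.0839), and the gene overlaps Spryd4, which had 4624 counts beside 438. Pdk4, Slc25a21 and Sucnr1, the succinate receptor gene, were at 0 in every library.

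For comparison, 9 of 18 tested genes of glycolysis and its transporters were called (50%), 7 higher and 2 lower. Of all tested genes 23.6% were called, 12.7% higher and 10.9% lower. Slc2a1, the main glucose transporter, rose from 172 ± 4.78 to 327 ± 30.1 CPM (SD, n = 3; log2 change 0.93 ± 0.09, edgeR adjusted p = 0.000291), and Slc16a1, a lactate and pyruvate transporter, fell by 0.72 on the log2 scale (adjusted p = 0.00101). A respiratory chain list held 16 genes of complexes I, III and IV and of ATP synthase. Of these 1 was called (6.25%), Ndufs1 of complex I, which fell by 0.50 on the log2 scale (adjusted p = 0.00713). In every gene of that list LPS 3 was the lowest LPS library. The summed level of the list was 5014 to 5039 CPM in the Vehicle libraries and 4095 to 5433 CPM in the LPS libraries. What part LPS 3 had in the number called was not tested. The succinate dehydrogenase genes, which form complex II, were not in that list, and Sdhd among them fell as given above. The median log2 changes were 0.05 for the glycolysis list and -0.00 for the respiratory chain list. Whether these lists differ from the cycle and carrier genes was not tested.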

How the data were processed

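Libraries of poly(A) RNA were made with a NEBNext Ultra kit and read on a NovaSeq, per the labels' protocols. The authors deposited estimated counts per gene and library, that is, expected counts made from the reads before deposit. The tools named, with no role given, are HISAT2, Bowtie2 2.2.8, DESeq2 and StringTie 1.3.1, per the submitters' processing notes. The genome build is not given in the sources used here. All values were whole, and low ones were spaced 3.81 to 3.93 counts apart, so a value is not a number of reads. The floor of 3 steps covers counting error only, since molecules were not tagged. Symbols were matched by Ensembl ID (35 of 35 members). Lengths are of the longest GENCODE transcript, and promoters are from RefSeq.

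Genes passing filterByExpr (at least 10 counts, total at least 15) were scaled by TMM and compared by the two-sided quasi-likelihood F-test of edgeR 4.0.16 (R 4.3.3, robust), with Benjamini-Hochberg adjustment over all 16371 genes. The SE is the log2 change over the square root of F. Ratios used counts plus 0.5. Alternatives were other scalings and filters, DESeq2 1.42.0, limma 3.58.1 voom, a replicate block and omission of single libraries. Values divided by their step, and edgeR's test as before version 4, were added after seeing the data. The procedure was also run on simulated counts, with an outcome not reported here. Those counts took their spread from these libraries and lacked the spacing of the low values. Figures used matplotlib 3.10.9 in Python 3.11.15. The members and lists were chosen with earlier results of these data known. Named were all members, called genes of the pathway list with the succinate dehydrogenase genes, and at most 2 called genes each of glycolysis and the respiratory chain. Nos2, Tnf and Il6 were chosen as a check of treatment, and Nos2 is printed. A gene of the pathway list is not reported here.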

Additional observations from a re-analysis of the deposited data

How the results depend on the processing

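Of the 13 called members, 7 kept call and direction in all 16 alternatives, and the calls lost by the other 6 are given beside them, except the loss of Slc25a1 with the replicate block. The number of genes changed in all ran from 2344 (without Vehicle 2) to 4535 (without LPS 3) when 1 library was left out. The number of members higher then ran from 2 (without LPS 1 or LPS 2) through 3 (without Vehicle 1, Vehicle 2 or Vehicle 3) to 8 (without LPS 3), and that of members lower from 5 to 7. Of the other genes of the pathway, those higher ran from 0 to 3 and those lower from 3 to 5. They numbered 1 higher with the size factors of DESeq2, upper quartile scaling, no filter or the replicate block, and 0 with total counts. Those lower were 7 with upper quartile scaling, the stricter filter or the replicate block, 10 with the DESeq2 Wald test and 11 with total counts, and the causes were not tested. The members' median log2 change was -0.11 with total counts, which moved the median of all genes to -0.10. Same-numbered libraries of the 2 groups correlated at 0.0734, 0.0453 and 0.0581 in their deviations from the group means. Libraries of unlike number correlated at -0.0623 to 0.0082, so each library correlated best with its own number. These low values cannot settle whether the numbers are pairs, and the main test used no pairing. With the replicate block 3816 genes were changed, and 5 members were higher and 7 lower. Slc25a1 lost its call, with a log2 change of 0.33 and an edgeR adjusted p of 0.0542. The mean differences of the log2 ratios stay the same by arithmetic when same-numbered libraries are paired (Acod1/Cs 3.42), so they do not test the pairing. The planned ratio of Pdk3 to Pdk2 was not run, as Pdk2 failed the filter. With 3 libraries a group, the SE of most members was near 0.10 on the log2 scale, which limits what smaller changes could be called.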
